A study of Mus musculus with 10 samples.

Results

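The 8 genes of the MHC class I presentation pathway described here were measured in the 10 libraries of a ribosome profiling study of Wdr4 in mouse cells. They are 8 of the 21934 gene symbols in each deposited table and were chosen by name, for their textbook role in loading peptides onto class I molecules, by a rule that uses no measured value, though earlier results of these data were known. They are the heavy chains H2-K1, H2-D1 and H2-T23, the light chain B2m, the peptide transporter subunits Tap1 and Tap2, the chaperone Tapbp and the peptidase Erap1. Ribosome profiling reads the pieces of mRNA that a ribosome covers, called footprints, and a matched input RNA library gives the amount of each mRNA.

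Nucleated cells show samples of their own proteins on class I molecules. The proteasome cuts proteins into peptides, the TAP transporter carries them into the endoplasmic reticulum, and tapasin holds an empty heavy chain with its light chain beside the transporter until a peptide fits. ERAP1 trims peptides that are too long, and the loaded complex moves to the cell surface, where CD8 T cells read it; in macrophages these genes are known for their response to interferon.

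The study asked how Wdr4, the partner of the tRNA methyltransferase Mettl1, acts on translation. The iBMDM libraries came from monoclonal lines of immortalized bone marrow-derived macrophages, given as sgWdr4-1, sgWdr4-2 (both carrying a lentiviral guide RNA against Wdr4, with puromycin selection of a week or more) and WT. The TAM libraries came from F4/80+ cells sorted out of liver tumours that had been grown from inoculated Hepa1-6 hepatoma cells, in mice with a myeloid Wdr4 deletion (Wdr4 cKO) and in Wdr4 ff mice. The sources used here do not give the Cre driver of the deletion, the age of the mice or whether animals were pooled. Each of these 5 conditions had 1 input and 1 footprint library. Both guides share the 1 WT line, and no label says whether lines or cells were grown or collected separately, so the spread between libraries may be technical.

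Values are the authors' TPM, the abundance of a gene's transcripts scaled for length and to a fixed library total. TPM keeps no read depth, so no counting interval can be given, and since the total is fixed, more TPM for one class of transcripts means less for the rest. The iBMDM and TAM tables were normalised separately, so differences were taken within a table. Wdr4 went partly against the labels. Its input TPM was 31.3 in the library labelled sgWdr4-1 (70.1% of WT), 44.5 in that labelled sgWdr4-2 (99.8%) and 44.6 in WT, and it was 20.9 in cKO (52.6% of ff) and 39.8 in ff. Its footprint TPM was 24.3 in sgWdr4-1 and 26.9 in sgWdr4-2, against 13.3 in WT, and 17.7 in cKO, against 8.51 in ff, so a direction below is that of the libraries so labelled. The markers also went against the labelled cell type: 16 of 20 macrophage and leukocyte genes had less than 1 TPM in every input library, and all 10 libraries listed Aif1 and Adgre1, which encodes F4/80, at 0. Of the macrophage and leukocyte genes, 2 had 5 TPM or more in every input library, Cd14 (13.8 to 19.8 TPM) and Lgals3. Of 14 fibroblast and stellate cell genes, 8 had 5 TPM or more in every input library. The other 6 (Pdgfra, Dcn, Lum, Des, Thy1 and Fap) had less than 1 TPM in each. One library stood apart: sgWdr4-1 footprints held 0.781% mitochondrially encoded TPM, against 9.94% to 14.6% in the other footprint libraries, and their robust SD from WT over genes was 0.916 on the log2 scale, against 0.516 for sgWdr4-2. Every guide result is therefore given for each guide, and sgWdr4-2 alone is the result without that library.

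The promoters of the heavy and light chain genes are shown first, since these genes are known for shared control elements. Whether the promoters bear on the values below was not tested. Stretches from RefSeq on GRCm38.p6 are given on the gene's own strand; a promoter entry was matched for 7 of the 8 genes, all but Tap2. Capitals mark matches, on either strand, to GAAANNGAA (an interferon response type motif), GGGGATTCC (a kappa-B type motif), TGACGC (a cAMP response element type motif) and CCAAT, which reads ATTGG on the other strand. H2-K1 lies at chr17:34000353-34000464 on the minus strand, H2-D1 at chr17:35262917-35263051 on the plus strand and B2m at chr2:122147542-122147644 on the plus strand.
H2-K1: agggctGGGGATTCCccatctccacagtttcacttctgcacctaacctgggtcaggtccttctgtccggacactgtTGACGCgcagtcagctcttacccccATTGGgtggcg
H2-D1: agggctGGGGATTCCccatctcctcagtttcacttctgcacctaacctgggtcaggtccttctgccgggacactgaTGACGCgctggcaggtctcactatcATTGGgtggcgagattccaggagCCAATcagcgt
B2m: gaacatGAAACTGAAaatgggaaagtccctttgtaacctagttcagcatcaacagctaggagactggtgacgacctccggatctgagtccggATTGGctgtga

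In the windows of 250 bases before each start site, GGGGATTCC was found in H2-K1 and H2-D1 and in 0.213% of 32851 promoter windows. In both genes TGACGC began 70 bases after the first base of it, and 101 of the 112 bases compared were identical (90.2%). B2m had neither run of letters in its window, and had GAAACTGAA, whose motif occurs in 7.13% of windows. That motif was also found on the other strand in Erap1 and H2-T23. It was not found in H2-K1 or H2-D1. Only this order of letters was searched, and other forms of an interferon response motif were not. The search therefore cannot show that H2-K1 and H2-D1 lack such a motif. TGACGC occurs in 6.12% of windows and CCAAT in 33.8%, and Tap1 and Tapbp had CCAAT alone. These matches describe letters and say nothing of a factor's binding.

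Of the 8 genes, 5 had a mean of at least 5 TPM in both input and footprints of both tables, the floor set for comparisons: H2-K1, H2-D1, B2m, Tapbp and Erap1. H2-T23, Tap1 and Tap2 did not, and are given by their levels. The lowest value of a measured gene in any library was 8.24 TPM and the highest of a low gene was 7.23 TPM. Differences are on the log2(TPM + 1) scale, where those of low genes come out too small. Translation efficiency is log2(footprint TPM + 1) minus log2(input TPM + 1) of the same condition, and a difference of at least 1 (2-fold) passed the size rule.

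The classical heavy chains H2-K1 and H2-D1 bind the peptide and present it to CD8 T cells. Their footprints were lower in both sgWdr4 lines and in cKO cells than in the controls, while their input RNA was level or higher. H2-K1 footprints were 76.6 TPM in sgWdr4-1 and 82.3 TPM in sgWdr4-2, against 149 TPM in WT. Its input RNA was 44.6 and 28.6 TPM in these lines, against 28.3 TPM in WT. Both targeted lines thus lay below WT in footprints, and only sgWdr4-1 lay well above it in RNA. In TAM, H2-K1 footprints were 116 TPM in cKO and 173 TPM in ff, and its input RNA was 74.9 TPM in cKO and 26.9 TPM in ff. The cKO library therefore held 2.79 times the H2-K1 RNA of ff and fewer footprints of it.

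H2-D1, the more abundant of the pair, had 236 and 268 footprint TPM in sgWdr4-1 and sgWdr4-2, against 476 in WT. Its input RNA was 182 and 141 TPM in these lines, against 137 TPM in WT. H2-D1 footprints were 368 TPM in cKO and 548 TPM in ff, and its input RNA was 248 TPM in cKO and 123 TPM in ff. As with H2-K1, the footprint values of the targeted libraries all lay below those of their controls. The efficiency of H2-K1 differed from WT by -1.59 under guide 1 and -0.87 under guide 2, and its difference of cKO from ff was -2.02. For H2-D1 these log2 differences were -1.42, -0.86 and -1.57.

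B2m, the light chain that every class I heavy chain needs to fold, differed least of the 5 in footprints and efficiency. Its footprints were 1528 TPM in sgWdr4-1 and 1392 TPM in sgWdr4-2, against 1689 TPM in WT, and 1894 TPM in cKO, against 2180 TPM in ff. Its input RNA was 435 and 402 TPM in these lines, against 406 TPM in WT, and 703 TPM in cKO, against 496 TPM in ff. The efficiency differences of B2m were -0.24 for guide 1, -0.27 for guide 2 and -0.71 for cKO. Of all genes tested, 40.0%, 33.9% and 26.3% had a lower difference in these comparisons, so B2m lay within the bulk of genes. Its footprint difference in cKO was -0.20, and 0.01 when libraries were rescaled to the same median.

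**Figure D1:**
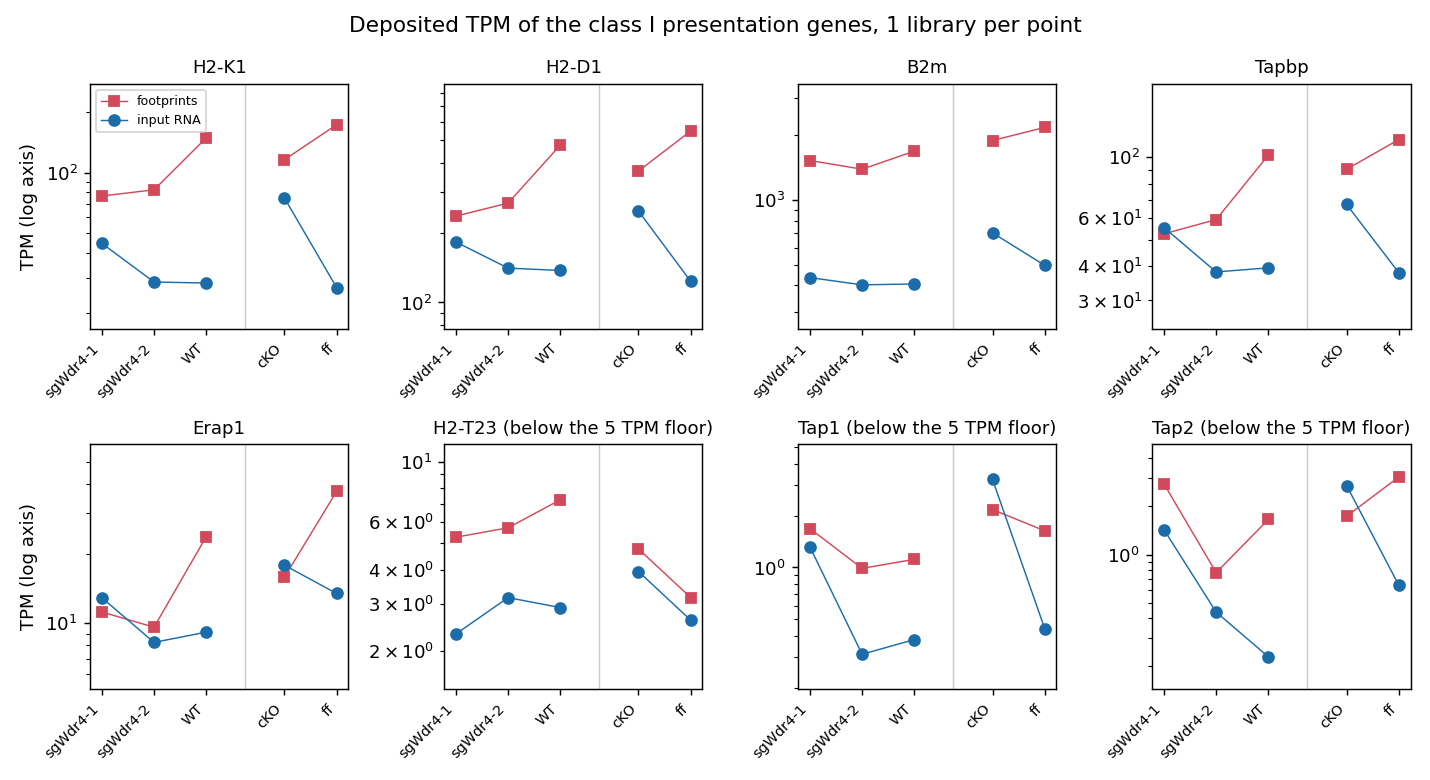
Deposited TPM (log axis) of the 8 genes in each condition, with red squares for footprints and blue circles for input RNA, 1 library per point, lines joining the conditions of 1 table as a guide to the eye. For H2-K1, H2-D1, B2m, Tapbp and Erap1 the footprint points of sgWdr4-1 and sgWdr4-2 lie below WT and those of cKO below ff, for H2-K1 at 76.6 and 82.3 TPM against 149 TPM and at 116 TPM against 173 TPM; for B2m in cKO this reverses, to a log2 difference of 0.01, once libraries are rescaled to the same median.

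Tapbp encodes tapasin, which bridges the heavy chain and the transporter. Its footprints were 52.5 TPM in sgWdr4-1 and 59.2 TPM in sgWdr4-2, against 102 TPM in WT, and 90.4 TPM in cKO, against 116 TPM in ff. Its input RNA was 55.4 and 38.1 TPM in these lines, against 39.5 TPM in WT, and 67.2 TPM in cKO, against 37.9 TPM in ff. Tapbp followed the heavy chains, with efficiency differences of -1.42 under guide 1, -0.72 under guide 2 and -1.17 in cKO.

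Erap1, the trimming peptidase, was the one member past the size rule for footprints in every comparison, a call that does not hold under every setting. Its footprints were 11.2 TPM in sgWdr4-1 and 9.59 TPM in sgWdr4-2, against 23.7 TPM in WT, and 15.8 TPM in cKO, against 37.3 TPM in ff. Its input RNA was 12.9 and 8.24 TPM in these lines, against 9.13 TPM in WT, and 17.8 TPM in cKO, against 13.4 TPM in ff. The log2 footprint difference of Erap1 was -1.02 under guide 1, -1.22 under guide 2 and -1.19 in cKO. The call was lost in cKO at -0.99 when libraries were rescaled to the same median, and under both guides, at a mean of -0.90, with a pseudocount of 5 TPM. Its efficiency differed by -1.48 in sgWdr4-1, -1.09 in sgWdr4-2 and -1.57 in cKO. It is also the least abundant of the 5 measured genes, so the TPM values behind these differences are small.

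Input RNA of the 3 low members was higher in cKO than in ff, as for the measured ones, while their footprints differed in either direction. H2-T23, which encodes the nonclassical Qa-1 heavy chain, had 5.27 and 5.70 footprint TPM in sgWdr4-1 and sgWdr4-2, against 7.23 in WT, and 4.77 in cKO, against 3.16 in ff. H2-T23 input RNA was 2.32 and 3.15 TPM in the sgWdr4 lines, against 2.90 TPM in WT, and 3.94 TPM in cKO, against 2.61 TPM in ff. Tap1 input RNA was 1.32 and 0.313 TPM in the sgWdr4 lines, against 0.381 TPM in WT, and 3.25 TPM in cKO, against 0.441 TPM in ff. Tap2 input RNA was 1.43 and 0.436 TPM in these lines, against 0.229 TPM in WT, and 2.70 TPM in cKO, against 0.643 TPM in ff. Within each table, RNA of both transporter subunits was thus highest in a targeted library, cKO or sgWdr4-1. Their footprints were between 0.77 and 3.06 TPM in all 5 conditions, too low for an efficiency to be read; at these levels 1 TPM added before the log weighs heavily.

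Set against all genes, the 5 measured members lay on the low side for footprints and efficiency. The footprint size rule was passed by 2 of the 5 under guide 1 (H2-D1 and Erap1), where 10.3% of 7536 genes passed in that direction. Under guide 2 it was passed by 1 of 5 (Erap1), against 4.63% of genes, and under both guides by the same gene, against 1.43%. In cKO it was passed by 1 of 5 (Erap1), against 8.15% of 7101 genes. The members' median footprint difference was -0.95 under guide 1, -0.83 under guide 2 and -0.57 in cKO, where the median of all genes was 0.09, -0.03 and -0.20. All 5 lay below the median of all genes in each of the 3 comparisons. In cKO, B2m lay at that median: relative to it the footprint differences were -0.38 for H2-K1, -0.37 for H2-D1, -0.16 for Tapbp and -0.99 for Erap1.

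For efficiency, 4 of the 5 were at least 2-fold lower under guide 1, all but B2m, where 13.7% of genes were. Under guide 2, without the library that stood apart, 1 of 5 was (Erap1), against 4.87% of genes, and under both guides Erap1 again, against 2.04%. In cKO 4 of 5 were, all but B2m, against 16.0% of genes; Tapbp lost this call, at -0.86, when libraries were rescaled to the same median. None was at least 2-fold higher in efficiency under guide 1, guide 2, both guides or in cKO, where 14.8%, 3.53%, 0.902% and 4.03% of genes were. The members' median efficiency difference was -1.42 under guide 1, -0.86 under guide 2 and -1.57 in cKO, where all genes had medians of 0.01, -0.05 and -0.25. Relative to the cKO median of all genes, the difference was -1.77 for H2-K1, -1.32 for H2-D1 and for Erap1, -0.91 for Tapbp and -0.45 for B2m. H2-K1 was farthest down in cKO, where 1.86% of genes had a lower efficiency difference, against 3.56% under guide 1 and 7.50% under guide 2.

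For input RNA, no measured member was 2-fold higher under guide 1, where 0.318% of genes were, or under both guides, where 0.0133% were. In cKO 1 of 5 was (H2-K1, by 1.45 on the log2 scale), against 1.42% of genes, and H2-D1 lay just under the threshold on that scale at a TPM ratio of 2.01. The members' median input difference was 0.46 under guide 1, -0.01 under guide 2 and 0.81 in cKO, with medians of all genes of 0.08, 0.01 and 0.06. All 5 lay above the median of all genes under guide 1 and in cKO, and 2 of 5 did under guide 2. Input RNA thus differed between the guides, while footprints were lower under both. The members' lower median efficiency under guide 1 and in cKO combined higher RNA with fewer footprints, and that under guide 2 came from footprints. Relative to the medians of all genes, the members' median was 0.38 for input and -1.04 for footprints under guide 1. In cKO it was 0.75 for input and -0.37 for footprints, so for this median the larger part was higher RNA. Erap1 went the other way in cKO, at 0.32 for input and -0.99 for footprints. In bulk libraries like these, a difference in the number of cells of a type and a difference in RNA per cell cannot be told apart.

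**Figure D2:**
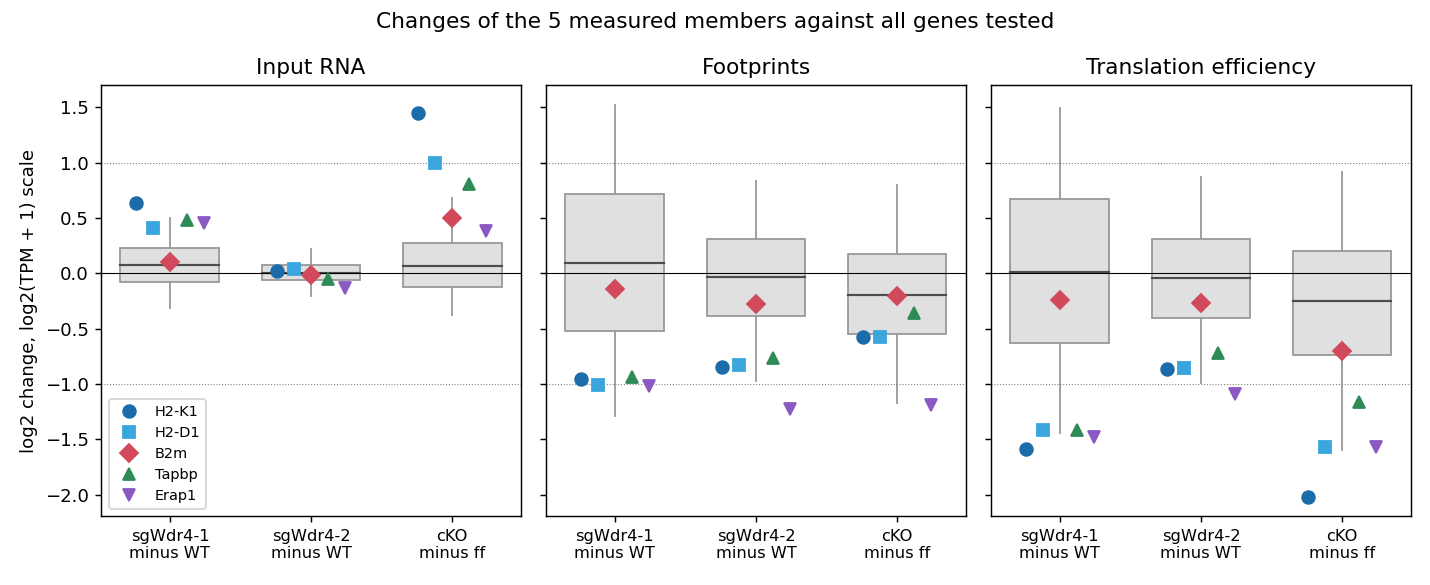
Differences on the log2(TPM + 1) scale of the 5 measured genes in input RNA, footprints and translation efficiency, 1 library against 1 per point, with grey boxes for the middle 50% of all genes, a line at their median, whiskers from the 5th to the 95th percentile and dotted lines at 2-fold. In the efficiency panel 4 genes lie below the box in each comparison, between -0.72 and -2.02, and B2m lies inside it at -0.24, -0.27 and -0.71.

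The 2 sgWdr4 lines were also tested together against WT with limma across all 7536 genes, two-sided, with Benjamini-Hochberg adjustment. No member passed an adjusted p of 0.05. For efficiency limma called 5 genes, 0.0663% of those tested, and 165 had an unadjusted p under 0.05. Among the 165 were 3 members: H2-K1 at a difference of -1.23 (SE 0.56), Erap1 at -1.28 (SE 0.62) and H2-D1 at -1.14 (SE 0.57). Tapbp at -1.07 (SE 0.60) and B2m at -0.25 (SE 0.55) were not, and the limma adjusted p of all 5 was 0.9999. Each of these differences was negative in both lines. The SEs draw on the spread of all genes, so that of B2m is far wider than the gap between its own guide values.

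For footprints limma called 1 gene, 0.0133%, with 65 at an unadjusted p under 0.05 and no member among them. The differences were -1.12 for Erap1 (SE 0.86), -0.92 for H2-D1 (SE 0.72), -0.90 for H2-K1 (SE 0.75), -0.85 for Tapbp (SE 0.77) and -0.21 for B2m (SE 0.72), all with a limma adjusted p of 0.99997. For input RNA limma called 0 genes, 0.0%, with 55 at an unadjusted p under 0.05 and no member among them. The largest input difference of a member was that of H2-K1 at 0.33 (SE 0.25, limma adjusted p = 0.9998). This fit had 1 residual degree of freedom per gene, from the gap between the guides, moderated towards genes of like level, and the WT line, with no repeat, was taken to vary as much. The cKO comparison, with 1 library a genotype, allows no p and has no check by replicates.

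The level of efficiency itself was high for these genes in the controls, though not for them alone. H2-K1 stood at 2.36 in WT, above 99.0% of genes, and at 2.65 in ff, above 99.2%. B2m stood at 2.05 in WT and 2.13 in ff, H2-D1 at 1.79 and 2.14, Tapbp at 1.34 and 1.59, and Erap1 at 1.29 and 1.41, all above at least 93.4% of genes. The median of all genes was -0.58 in WT and -0.59 in ff. Other listed genes ranged from high to low. In WT, Calr had 3318 footprint TPM on 1065 input TPM and Ifi30 194 on 50.3, while Tpp2 had 16.6 on 69.6. Which lengths scaled the footprints is not given in the sources used here, so the level of a gene with long untranslated ends is less sure than its difference between conditions.

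In the targeted libraries the order of the genes differed from that in the controls. B2m led in sgWdr4-1 at 1.81, in sgWdr4-2 at 1.79 and in cKO at 1.43, still above 98.3%, 97.6% and 94.8% of genes. H2-K1 stood at 0.77, 1.49 and 0.63 in these conditions, above 89.2%, 96.1% and 85.9% of genes. H2-D1 stood at 0.37, 0.93 and 0.57, and Tapbp at -0.07, 0.62 and 0.42. Erap1 was lowest of the 5 in every condition, at -0.19 in sgWdr4-1, 0.20 in sgWdr4-2 and -0.16 in cKO, above 60.1%, 76.0% and 69.1% of genes. With 1 efficiency value per condition, neighbours in these orders have no spread to be told apart by. The members' median level was 0.37 in sgWdr4-1 and 0.93 in sgWdr4-2, against 1.79 in WT, and 0.57 in cKO, against 2.13 in ff.

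**Figure D3:**
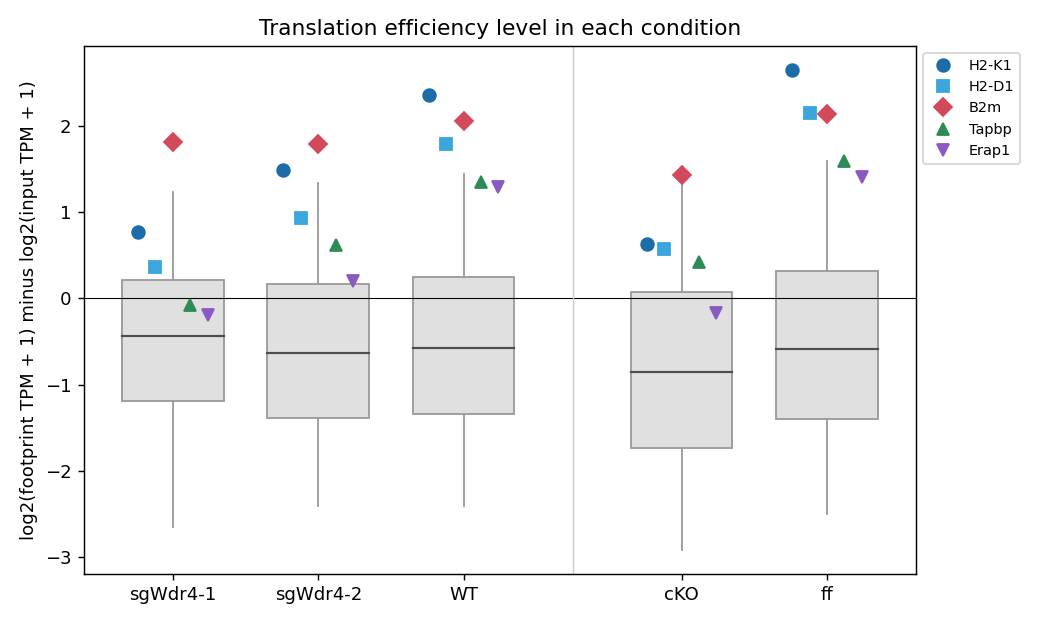
Translation efficiency level, log2(footprint TPM + 1) minus log2(input TPM + 1), of the 5 measured genes in each condition, with grey boxes for all genes drawn as quartiles, median line and 5th to 95th percentile whiskers. In WT and ff the 5 genes lie between 1.29 and 2.65, and in sgWdr4-1, sgWdr4-2 and cKO the other 4 lie below B2m, which keeps 1.81, 1.79 and 1.43.

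Since the members rank high in the controls, they were set beside all genes that rank high in the control of the other table, themselves included. All 5 were among the top 10% by efficiency in ff and in WT, 693 of the 6927 genes measured in both tables. Ranked in ff, those 693 genes had median efficiency differences of -0.47 under guide 1 and -0.19 under guide 2, and 21.2% and 6.20% of them were at least 2-fold lower. Ranked in WT, they had a median of -0.37 in cKO, and 19.8% were at least 2-fold lower. Of the 693 genes, 7.36% had a difference below the members' median of -1.42 under guide 1, 10.8% below -0.86 under guide 2, and 7.50% below -1.57 in cKO. This is a description of these libraries, with no test.

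Relative to the light chain, heavy chain footprints were lower in the targeted libraries while heavy chain RNA was level or higher. The sum of H2-K1 and H2-D1 over B2m in footprints was 0.204 in sgWdr4-1 and 0.252 in sgWdr4-2, against 0.370 in WT, and 0.256 in cKO, against 0.331 in ff. In input RNA the same ratio was 0.522 and 0.421 in these lines, against 0.408 in WT, and 0.459 in cKO, against 0.303 in ff. The footprint ratio was thus 0.552, 0.680 and 0.773 of its control under guide 1, guide 2 and in cKO, and the RNA ratio 1.28, 1.03 and 1.51 times its control. A ratio within a library does not depend on the library total.

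**Figure D4:**
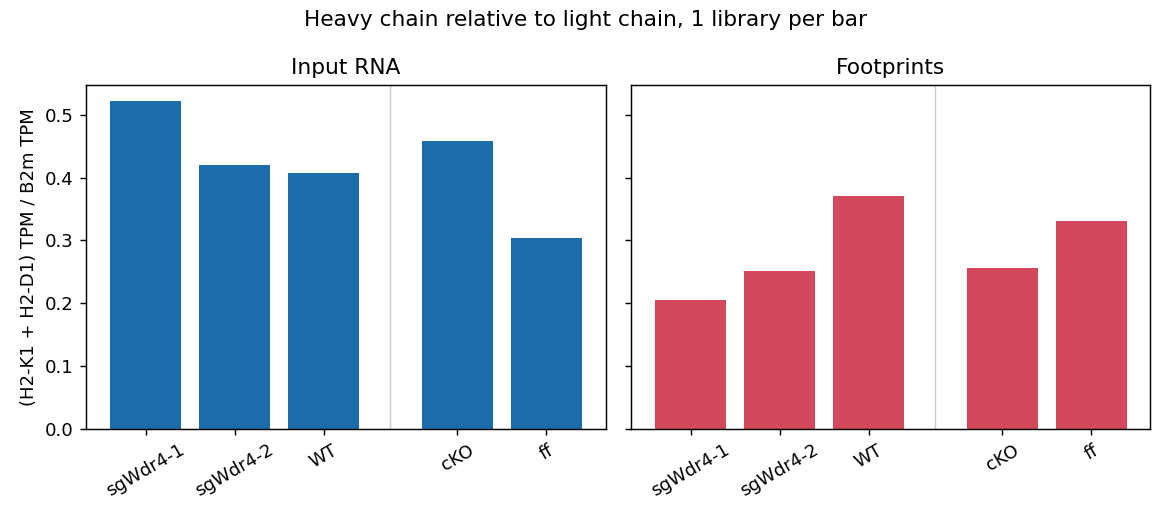
Summed TPM of H2-K1 and H2-D1 divided by the TPM of B2m, in input RNA (left, blue) and footprints (right, red), 1 library per bar. In footprints the bars of sgWdr4-1 (0.204) and sgWdr4-2 (0.252) lie below WT (0.370) and that of cKO (0.256) below ff (0.331), while in input RNA no targeted bar lies below its control.

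Heavy chain genes share much of their sequence, and how reads that map to several of them were shared out is not given in the sources used here, so values of single heavy chains are uncertain. The sum over 17 H2 class I genes depends less on that split. It was 334 footprint TPM in sgWdr4-1 and 369 in sgWdr4-2, against 644 in WT, and 502 in cKO, against 749 in ff. The input sum was 288 and 223 TPM in these lines, against 217 TPM in WT, and 395 TPM in cKO, against 199 TPM in ff. The efficiency of the sum differed by -1.35 under guide 1, by -0.84 for guide 2 and by -1.56 for cKO, close to the values of H2-D1 alone. H2-K1 and H2-D1 made up 93.3% to 97.1% of the footprint sum and 75.4% to 81.6% of the input sum. The ratio of H2-D1 to H2-K1 was 3.08 to 3.26 in footprints of all 5 conditions, and in input RNA it was 4.09 and 4.91 in the sgWdr4 lines, against 4.86 in WT, and 3.31 in cKO, against 4.60 in ff. H2-T22, a nonclassical heavy chain, had 33.0 to 50.4 input TPM but 0.278 to 5.07 footprint TPM.

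Of the other class I and related heavy chains, 21 were listed, 2 were measured in iBMDM and 3 in TAM, and none passed the size rule in any comparison. Fcgrt, the neonatal Fc receptor that also pairs with B2m, had efficiency differences of -0.19 under guide 1, 0.01 under guide 2 and -0.50 in cKO. H2-M3, which presents formylated peptides, had 0.76, 0.09 and -0.70. Fcgrt and H2-M3 thus lay nearer 0 than H2-K1 and H2-D1 in each comparison, a gap that was not tested. Mr1, measured in TAM alone, had 0.17 in cKO. In iBMDM, where it was below the floor, Mr1 had 5.60 and 5.93 footprint TPM in sgWdr4-1 and sgWdr4-2, against 10.5 in WT. Its efficiency differences there were -0.86 and -0.73, the latter not far from H2-D1 under guide 2.

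Peptide supply, loading and editing was covered by 23 listed genes, of which 17 were measured in both tables. None was at least 2-fold apart in efficiency under both guides. Under guide 1 alone 3 were higher (Tpp2 at 1.25, Thop1 at 1.21 and Blmh at 1.93, all cytosolic peptidases), where 14.8% of all genes were, and in cKO none was. The list's median efficiency difference was -0.29 under guide 1, -0.27 under guide 2 and -0.45 in cKO. The chaperones of the loading complex had the highest RNA of the list. Calr, which encodes calreticulin, had efficiency differences of -0.63, -0.27 and -0.44, and Pdia3, the disulfide isomerase ERp57 that partners tapasin, had -0.63, -0.44 and -0.51. Canx, which encodes calnexin, the first chaperone of new heavy chains, had -0.86, -0.55 and -0.45. All 3 were negative in each comparison, on RNA that differed by at most 0.17, and less so than the heavy chains and Tapbp. In cKO 2 of the 17 were at least 2-fold lower in efficiency, no larger a share than the 16.0% of all genes: Psme2, a proteasome activator subunit (-1.45), and Blmh, a cytosolic peptidase (-1.37, with footprints at -1.48). The interferon-inducible proteasome subunits Psmb8 and Psmb9 were at or under 0.362 TPM in every input library. Psmb10, another such subunit, was measured in both tables, at 5.66 to 9.79 input TPM. Its efficiency differences were 0.11 under guide 1, 0.26 under guide 2 and -0.11 in cKO.

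Of 21 listed regulators of class I genes, 16 were measured in iBMDM and 15 in TAM. Ifnar1, a subunit of the type I interferon receptor, was the 1 of 16 past the size rule under both guides, where 2.04% of all genes were lower in efficiency: its footprints were 18.5 TPM in sgWdr4-1 and 15.2 TPM in sgWdr4-2, against 59.8 TPM in WT. Its efficiency differed by -1.95 and -1.81 in these lines, and by -0.39 in cKO. In cKO 2 of the 15 were at least 2-fold lower in efficiency, no larger a share than the 16.0% of all genes. They were Rfxank, a subunit of the RFX complex at MHC promoters (-1.39), and Ezh2, a histone methyltransferase (-1.37). Ezh2 went in the opposite direction under guide 2, at 1.08, where 3.53% of all genes were at least 2-fold higher. Among the most abundant, Ifngr1, a subunit of the interferon gamma receptor, had efficiency differences of -1.25, -0.71 and -0.11, Jak1, the kinase on these receptors, 0.36, 0.19 and -0.67, and Nfkb1 0.41, -0.27 and -0.28. Under guide 1 alone, 5 of the 16 were at least 2-fold lower in efficiency (13.7% of all genes were), Ifnar1, Ifngr1, Ifnar2 (-1.89), Rfx5 (-1.36) and Ifngr2 (-1.30), and 2 were higher (14.8% of all genes were), the interferon regulatory factors Irf2 (2.20) and Irf1 (1.42). The regulators' median was -0.02 under guide 1, -0.33 under guide 2 and -0.57 in cKO. Nlrc5, the transactivator of class I genes, had at most 1.77 input TPM.

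The 5 genes outside the list closest to the members' median pattern were found over 6 differences, those of input RNA and of footprints under guide 1, guide 2 and in cKO. Among 3446 genes with at least 20 TPM on average in both kinds and tables, Serinc3 lay at a root mean square distance of 0.126 on the log2 scale, then Ero1a (0.140), Fgfr1 (0.141), Il17rc (0.143) and Hgsnat (0.143). The members lay at 0.0857 (H2-D1), 0.0932 (Tapbp), 0.270 (H2-K1), 0.351 (Erap1) and 0.467 (B2m), so 3 of them were farther from their own median than these 5 genes. The guide differences share the WT libraries, so the 6 values are not independent.

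Cell type markers were summed beside these results. Summed input TPM of the macrophage and leukocyte list was 564 in sgWdr4-1 and 627 in sgWdr4-2, against 590 in WT, and 688 in cKO, against 527 in ff, nearly all of it from Lgals3. That of the fibroblast and stellate list was 7632 and 6670 in these lines, against 6549 in WT, and 8962 in cKO, against 6626 in ff. Of 11 hepatocyte and hepatoma genes in the tables, 9 were under 1 TPM in every input library. The summed input TPM of that list was 139 in sgWdr4-1 and 108 in sgWdr4-2, against 114 in WT, and 166 in cKO, against 98.3 in ff. It came mostly from the apolipoprotein genes Apoa2 and Apoa1, and Apoa1 had 21.3 and 8.06 input TPM in these lines, against 8.31 in WT, and 26.5 in cKO, against 7.76 in ff. The fibroblast and the hepatocyte sums were thus both higher in sgWdr4-1 and cKO, the libraries with more class I RNA. The macrophage sum, which follows Lgals3, was higher in cKO. Cd14, the only other measured gene of that list, had less input RNA there, 14.8 TPM against 19.8 TPM in ff. In sgWdr4-1 and sgWdr4-2 it had 13.8 and 17.0 TPM, against 18.6 TPM in WT. The part of these markers in the result was not tested. All 16 lymphoid, neutrophil, dendritic and endothelial markers were under 1 TPM in every input library.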

How the data were processed

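The authors deposited TPM, transcripts scaled for length and to a fixed total, in 1 table for the 6 iBMDM libraries and 1 for the 4 TAM libraries. The submitters' processing notes name Bowtie2 and fastp 0.18.0; which build, annotation and quantifier made the TPM is not given in the sources used here. Input and footprint libraries carry the name of the same line or genotype in the labels, and the efficiency pairs them by that name.

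Each table held 21956 rows; for 20 symbols on 42 rows the row of highest mean TPM was kept. Genes entered where input and footprints each averaged 5 TPM or more (7536 iBMDM, 7101 TAM), as log2(TPM + 1). limma 3.58.1 in R 4.3.3 (empirical Bayes with trend) compared 2 sgWdr4 lines with 1 WT line. The rest used matplotlib 3.10.9, pandas 2.3.3 and numpy 2.4.6 in Python 3.11.15. The members and lists were chosen with earlier results of these data known. Named were all members, Wdr4 and the 5 genes of most like pattern. Of each list, the 3 genes of highest mean input were named. List genes past the size rule under both guides or in cKO were named too, up to 4 per list and direction. Psmb8, Psmb9, Psmb10, Mr1, Nlrc5, Lgals3, Ifi30, Cd74, list genes past 2-fold under guide 1 alone and marker genes were named besides, after their values were seen. Alternatives were other pseudocounts, floors and scalings, limma without trend, no pairing and each guide alone.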

Additional observations from a re-analysis of the deposited data

How the results depend on the processing

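Under 2 pseudocounts, 2 floors, 2 rescalings and each guide left out, 19 of the 20 footprint and efficiency differences of single measured members stayed below 0, the exception being B2m footprints in cKO at 0.01 when libraries were rescaled to the same median. No median over the members changed sign in footprints or efficiency. Members past the size rule in iBMDM, 1 for footprints and 1 for efficiency, became 0 and 0 with a pseudocount of 5 TPM and 0 and 0 with a floor of 20 TPM, which removes Erap1. Leaving out a guide gave 1 to 2 members for footprints and 1 to 4 for efficiency, and medians of -0.95 to -0.83 and -1.42 to -0.86. The iBMDM footprint median of -0.90 was -0.99 when the scaling ignored histone, ribosomal protein and mitochondrial genes. Input medians in iBMDM ran from -0.01 to 0.46 by guide. In TAM, 1 member was higher in input RNA, 2 with a pseudocount of 0.5 TPM (H2-D1 added) and 3 with no floor (H2-K1, Tap1 and Tap2). For cKO efficiency, 4 members became 3 to 6, with Tapbp lost under rescaling to the same median. For cKO footprints, 1 became 0 with a floor of 20 TPM and 0 when libraries were rescaled to the same median. With that rescaling the members' median efficiency level was 1.05 in sgWdr4-1, 1.73 in sgWdr4-2 and 2.50 in WT, and 1.66 in cKO and 2.92 in ff, in place of 0.37, 0.93, 1.79, 0.57 and 2.13. The cause was not tested.

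Counts over all genes moved more. At least 2-fold lower in efficiency under both guides were 154 genes, 86 with a pseudocount of 5 TPM, 458 with no floor and 44 with a floor of 20 TPM; for footprints the 108 became 45, 337 and 26. For cKO efficiency the 1135 became 728, 2241 and 399, and 669 when rescaled to the same median; for cKO footprints the 579 became 258, 1205, 170 and 351; for cKO input RNA the 101 became 48, 282, 35 and 61. limma called 0 members in each measure under every setting. Without the replicate block, that is with input and footprints of a line not paired, limma called 0 members and 0 genes for efficiency, against 5 genes paired. Depth is unknown, so TPM near 1 may rest on few reads.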

Other observations

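Among 12 MHC class II genes, which present peptides taken up from outside the cell, 9 had under 1 TPM in every input library, and Cd74, the invariant chain, had at most 0.717 TPM there. Ifi30, a lysosomal thiol reductase that opens antigens for class II loading, was measured in both tables. Its footprints were 86.0 TPM in sgWdr4-1 and 102 TPM in sgWdr4-2, against 194 TPM in WT, and 163 TPM in cKO, against 244 TPM in ff. Its input RNA was 60.8 and 50.8 TPM in these lines, against 50.3 TPM in WT, and 64.8 TPM in cKO, against 45.3 TPM in ff. The efficiency differences of Ifi30 were -1.43 for sgWdr4-1, -0.94 for sgWdr4-2 and -1.08 for cKO. Its call at 2-fold was made for sgWdr4-1 and cKO and not for sgWdr4-2.

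The 8 class I genes together took 0.191% of footprint TPM in sgWdr4-1 and 0.182% in sgWdr4-2, against 0.245% in WT, and 0.249% in cKO, against 0.306% in ff. They took 0.0735% and 0.0622% of input TPM in these lines, against 0.0624% in WT, and 0.112% in cKO, against 0.0701% in ff. B2m made up most of each share.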
